A study of Mus musculus with 4 samples.

Results

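The INT2 viewpoint is 1 of 4 sites in the mouse Tcra/Tcrd locus from which circular chromosome conformation capture (4C-seq) was read. 4C-seq crosslinks chromatin, cuts it with HindIII, ligates fragments that lie together in the nucleus and sequences what was joined to the viewpoint fragment. The INT2 libraries are 4 of the 16 libraries of the study, chosen by their viewpoint name and not by any measured value, with 2 from each cell type. The DN libraries come from thymocytes (CD4- CD8- per the study's design text) of litters of C57BL/6 Rag2-/- mice aged 3 weeks. The B libraries come from naive B cells of the spleen of wild type C57BL/6 mice, whose age and isolation are not given in the sources used here. Genotype and tissue therefore differ together with cell type. The sequencing folders named in the file headers also separate the cell types, with 0 of 3 folders holding both, so that folder and cell type cannot be told apart. The labels do not say whether replicates were separate litters or cultures, so p-values measure the spread between these samples only. These are DNA contacts, and cell identity could not be checked against expressed markers.

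The Tcra/Tcrd locus encodes the alpha and delta chains of the T-cell receptor within one stretch of chromosome 14. A long array of Trav and Trdv gene segments lies on one side, followed by the Trdd, Trdj and Trdc segments of Tcrd, and then the Traj segments and Trac of Tcra. INT1 and INT2 lie in the interval between the V array and the Trdd segments and are known as elements bound by CTCF, the protein that anchors many chromatin loops. TEA is a promoter at the start of the Traj array, also with a CTCF site, and Ed (Eδ) is the enhancer of Tcrd. Rag2 is needed to cut receptor gene segments, so Rag2-/- thymocytes keep the locus unrearranged and stop at the DN stage. In the reference gene order (RefSeq, GRCm38, used for names only), Dad1, Abhd4, Olfr49 and Oxa1l follow Trac.

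The viewpoint fragment lies at chr14:54680988-54683873 (mm9). The INT1 fragment (chr14:54677060-54677623) lies 5.09 kb to its lower-coordinate side, towards the V array. The Ed fragment (chr14:54763263-54765182) lies 81.8 kb and the TEA fragment (chr14:54769627-54773311) 89.0 kb to its higher-coordinate side. The viewpoint and 1 fragment on each side were left out. Of 601 mapped fragments within 1 Mb, 329 lay on the lower and 272 on the higher side. Levels are given as percent of the chromosome 14 reads that remain.

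The libraries held 1907814 and 7457367 mapped reads in DN, and 11814951 and 15722920 in B. Chromosome 14 reads outside the viewpoint numbered 217714 and 1214544 in DN against 703682 and 1029875 in B, or 11.4% and 16.3% against 5.96% and 6.55% of the library. Reads on other autosomes made up 55.1% and 48.1% of the DN libraries and 68.0% and 70.4% of the B libraries. At the per-fragment density of those autosomes, 28.5% and 17.5% of the chromosome 14 reads of DN would be background, against 67.5% and 63.5% in B. The part of this difference in the results that follow was not tested, and values relative to that density, or independent of library size, are given beside them. Reads amplified by PCR without molecular identifiers are not independent molecules.

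Some fragments carried exactly the values of another chromosome 14 fragment, and within 1 Mb all of these lay on the lower side, towards the V array. Of the 329 lower-side fragments within 1 Mb, 79 were counted as carrying values identical to those of another chromosome 14 fragment. Of these, 70 did so in all 16 libraries of the study. On the higher side 0 of 272 were counted. Such fragments held 59.0% and 66.8% (DN) and 45.6% and 77.1% (B) of the reads between 500 kb and 1 Mb on the lower side, and 68.7% and 74.7% against 48.5% and 43.3% between 1 and 2 Mb. Within 500 kb they held 1.49% to 5.10%. Reads of such a fragment cannot be assigned to one position.

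INT2 contacts were more concentrated around the viewpoint in DN. Within 1 Mb lay 63.9% and 74.6% of chromosome 14 reads in DN and 25.7% and 26.5% in B, a difference of 43.2 percentage points. Both DN libraries stood above both B libraries. With the density of other autosomes subtracted the shares were 88.5% and 89.9% against 74.3% and 68.6%, a difference of 17.8 points. The exact permutation test of 2 against 2 libraries, two-sided, gave p = 0.333 for both, the smallest it can give. DN libraries captured 407 and 479 of the 601 fragments, or 67.7% and 79.7%, although DN replicate 1 was the shallowest library. B libraries captured 317 and 348, or 52.7% and 57.9%.

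**Figure D1:**
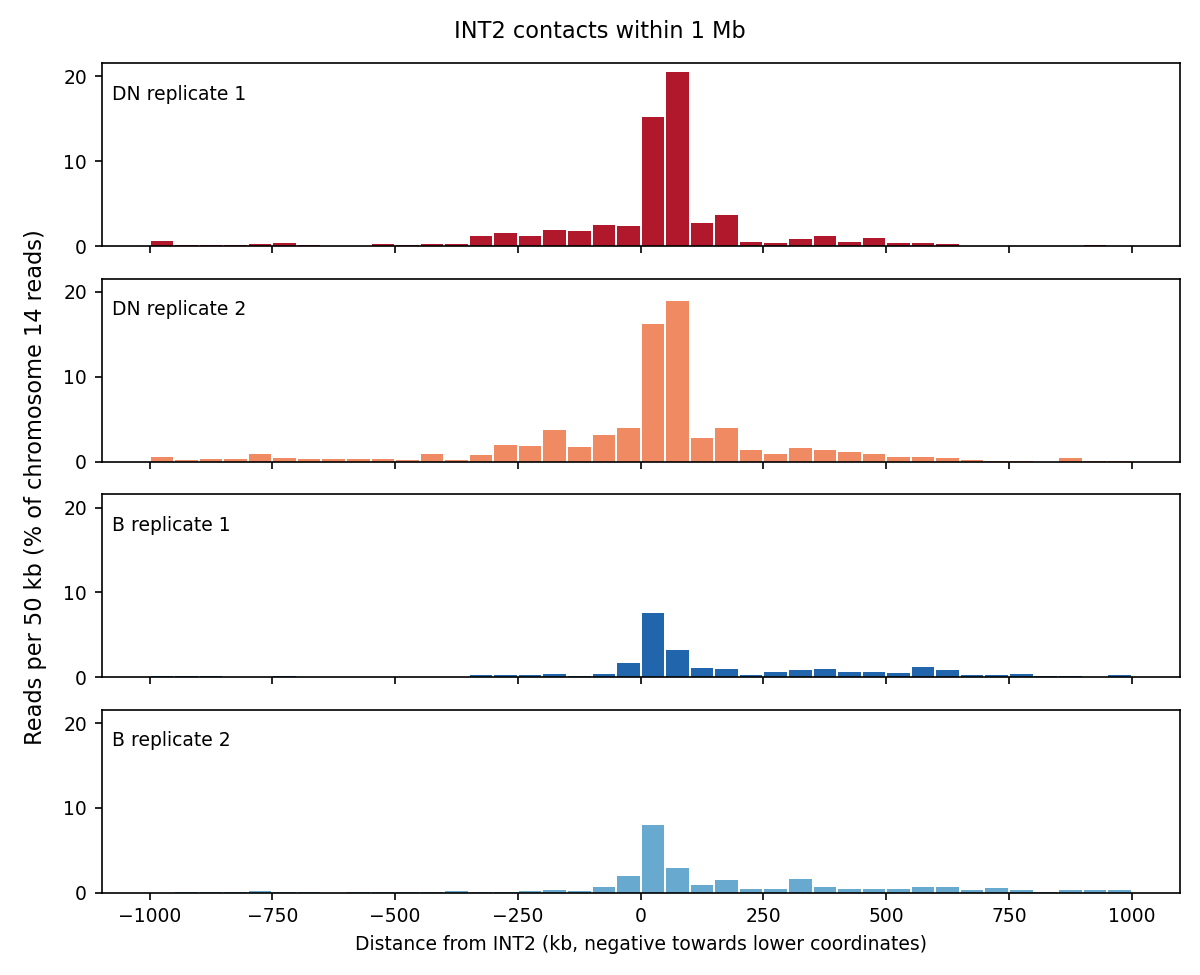
Reads per 50 kb as percent of chromosome 14 reads (y axis) against distance from INT2 in kb (x axis, negative towards the V array), 1 panel per library on a shared scale. The tallest bar in both DN libraries is 50 to 100 kb on the higher side, at 20.6% and 19.0%, while in B it is the first 50 kb, at 7.54% and 8.05%.

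A large part of the DN signal lay between INT2 and TEA, the stretch that holds Ed. The 32 fragments from INT2 to 1 fragment beyond TEA held 34.5% and 34.5% of chromosome 14 reads in DN and 10.5% and 10.9% in B. In 30 of these 32 fragments both DN libraries exceeded both B libraries, and in 0 the reverse. Over all 515 fragments tested within 1 Mb, both DN libraries exceeded both B libraries in 43.1%, and both B libraries exceeded both DN libraries in 9.32%. As a share of the reads within 1 Mb the inner fragments took 54.0% and 46.2% in DN and 41.0% in each B library.

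The TEA fragment took 5.92% and 3.07% of chromosome 14 reads in DN and 0.890% and 0.687% in B. Both DN values lay above both B values, with a ratio of means of 5.70. The log2 difference was 2.45 (SE 0.39, limma, adjusted p = 0.0665), which did not pass the threshold of 0.05. It passed with all chromosomes as library size (limma, adjusted p = 0.0493). It also passed with a replicate block (limma, adjusted p = 0.0105), but replicate numbers do not pair the samples, so this pass adds little. The TEA fragment was the highest within 1 Mb in DN replicate 1, whereas in the other libraries a fragment 6.71 kb from the viewpoint was highest.

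The Ed fragment took 1.003% and 0.767% in DN and 0.0844% and 0.130% in B, a ratio of means of 8.25. The groups did not overlap. The log2 difference was 3.06 (SE 0.43, limma, adjusted p = 0.0665), which did not pass. It passed with copied fragments left out (adjusted p = 0.0465) and with all chromosomes as library size (0.0493). Values capped at the 95th percentile gave an adjusted p of 0.0203 (limma), with a limit given below. The INT1 fragment took 0.559% and 1.16% in DN against 0.691% and 0.336% in B. Here the groups overlapped, and the log2 difference of 0.74 (SE 0.58, limma, adjusted p = 0.519) did not pass; its sign turned when reads within 1 Mb were the library size (-0.66). With capped values the TEA and INT1 fragments both gave 1.68 (limma, adjusted p = 0.00295), the same value for both. Capping gives all fragments above the cap of a library the same value. This result therefore compares the caps and is no test of either fragment. The Ed fragment also lay above the cap in both DN libraries. Its capped result therefore rests on the DN caps and not on its DN levels.

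The same pairs were also read from the other end. From TEA, the INT2 fragment took 0.372% and 0.136% in DN and 0.162% and 0.134% in B, a ratio of means of 1.72 with overlapping groups. From Ed it took 0% and 0.000765% in DN and 0% in both B libraries, too few reads to compare. From INT1 it took 13.2% and 6.61% in DN and 18.5% and 15.5% in B, so that here both B libraries were above both DN libraries.

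**Figure D2:**
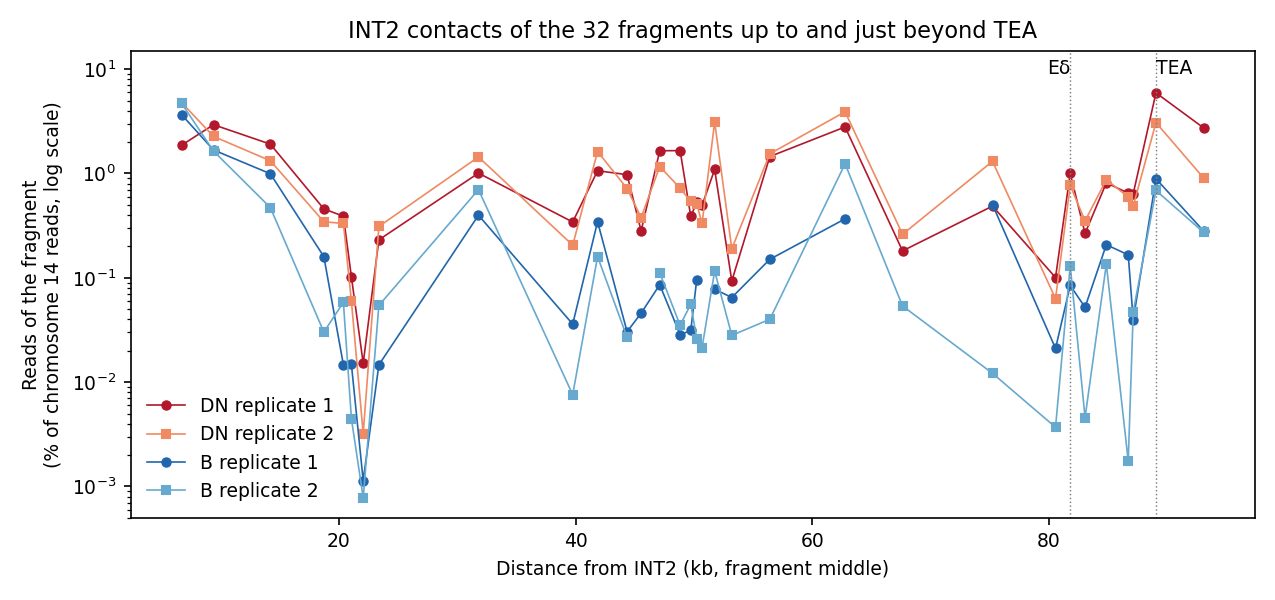
Percent of chromosome 14 reads (y axis, log scale) of the 32 fragments from INT2 to 1 beyond TEA, against distance from INT2 in kb (x axis), 1 line per library, with dotted lines at Ed (Eδ) and TEA. Values of 0 are not drawn. Beyond 10 kb the DN lines run above the B lines in most fragments, and TEA is a local maximum in all 4 libraries.

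No single fragment passed the test over all fragments. Of 515 fragments tested with limma, 0 (0.0%) had an adjusted p under 0.05, the smallest being 0.0665, and 125 had an unadjusted p under 0.05. The log2 difference was above 0 in 392 of 515, with a median of 2.42. These values depended on the library size. With all chromosomes they were 434 and 2.54, and with reads within 1 Mb 323 and 1.25. With DESeq2 they were 291 and 0.44. edgeR on the recovered reads also called 0 (74 at an unadjusted p under 0.05), and DESeq2 called 43 higher and 29 lower in DN. Leaving out fragments with a copy, an alternative chosen after seeing the data, gave 30 higher and 6 lower in DN of 442 tested. These calls lay just under the threshold (limma, smallest adjusted p 0.0456). Of them, 23 and 6 had no read in either library of the other cell type. Of those 30, 23 lay on the lower side, from 61.1 to 986 kb away, and all 6 lower ones lay on the higher side from 741 to 994 kb.

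The sides differed in where DN and B stood apart. On the lower side 129 of 267 tested fragments had both DN libraries above both B libraries and 2 the reverse. Over all 515 tested fragments these shares were 43.1% and 9.32%. On the higher side within 200 kb the counts were 61 and 0 of 71, but from 500 kb to 1 Mb they were 8 and 36 of 111. On the lower side from 500 kb to 1 Mb they were 34 and 2 of 122. Fragments with at least 0.01% of chromosome 14 reads in both libraries of one cell type and none in the other numbered 36 of 601 (5.99%) for DN, 33 of them on the lower side, and 12 (1.997%) for B, 10 of them on the higher side. In both libraries 287 fragments reached that level in DN and 168 in B. Of the 36, 5 were counted as having a copy. The fragments chr14:54163748-54171202 (110 and 181 reads) and chr14:54252688-54255224 (32 and 1103 reads) were not, yet each has the INT2 values of a counted one. The rule on INT2 values needs reads in at least 3 libraries, which fragments read in 1 cell type cannot meet. Both lower-side fragments of B carry the same values as each other, 238 and 138 reads. The lower-side fragment chr14:54459317-54461601, 222 kb from INT2, had 240 and 8561 reads in DN and 0 in both B libraries. Its mean level in DN was 1136-fold that of a floor of 3 reads in each B library. The higher-side fragment chr14:55432757-55441522, 755 kb away, had 0 reads in both DN libraries. It took 0.134% and 0.0897% in B, with a mean 138-fold that of 3 reads in each DN library. Neither fold is a lower bound, because reads are not independent molecules and many fragments went uncaptured. B captured 32.3% and 38.7% of lower-side fragments from 200 to 500 kb. DN captured 50% and 64.6% of higher-side fragments from 500 kb to 1 Mb. This pair of fragments was chosen as an example after their values were seen.

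A line fitted to level against distance, from 10 kb to 1 Mb, differed in opposite ways on the flanks. The slope of log2 level per fragment on log2 distance, which does not depend on library size, was -0.44 and -0.45 in DN and -0.63 and -0.86 in B on the lower side. The fitted line was thus flatter in DN towards the V array. On the higher side the slopes were -1.16 and -0.92 in DN and -0.50 and -0.38 in B, a steeper fitted line in DN. Neither pair of groups overlapped, with differences of 0.30 and -0.60 (exact permutation p = 0.333 for each, the smallest possible). Levels did not fall steadily along these lines. Over the density of other autosomes, the higher side in DN stood at 478-fold and 596-fold from 10 to 25 kb. From 50 to 100 kb it stood higher, at 949-fold and 1430-fold. The B values were 77.8-fold and 42.7-fold, then 62.4-fold and 59.9-fold. The lower side in DN rose from 55.6-fold and 202-fold (25 to 50 kb) to 126-fold and 260-fold (50 to 100 kb). With copied fragments left out the lower-side slopes were -0.51 and -0.57 against -0.67 and -1.05.

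Over the density of other autosomes, the fragments 200 to 500 kb into the V array stood 44.7-fold and 98.0-fold higher in DN but 4.11-fold and 3.08-fold in B. From 500 kb to 1 Mb they stood 13.4-fold and 35.3-fold in DN and 2.29-fold and 2.31-fold in B. On the higher side the values were 59.3-fold and 158-fold against 22.2-fold and 24.0-fold at 200 to 500 kb. At 500 kb to 1 Mb they were 11.3-fold and 30.9-fold against 12.6-fold and 13.1-fold, where the groups overlapped. The B libraries thus kept contacts well above that density on the higher side, while towards the V array they came near it.

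**Figure D3:**
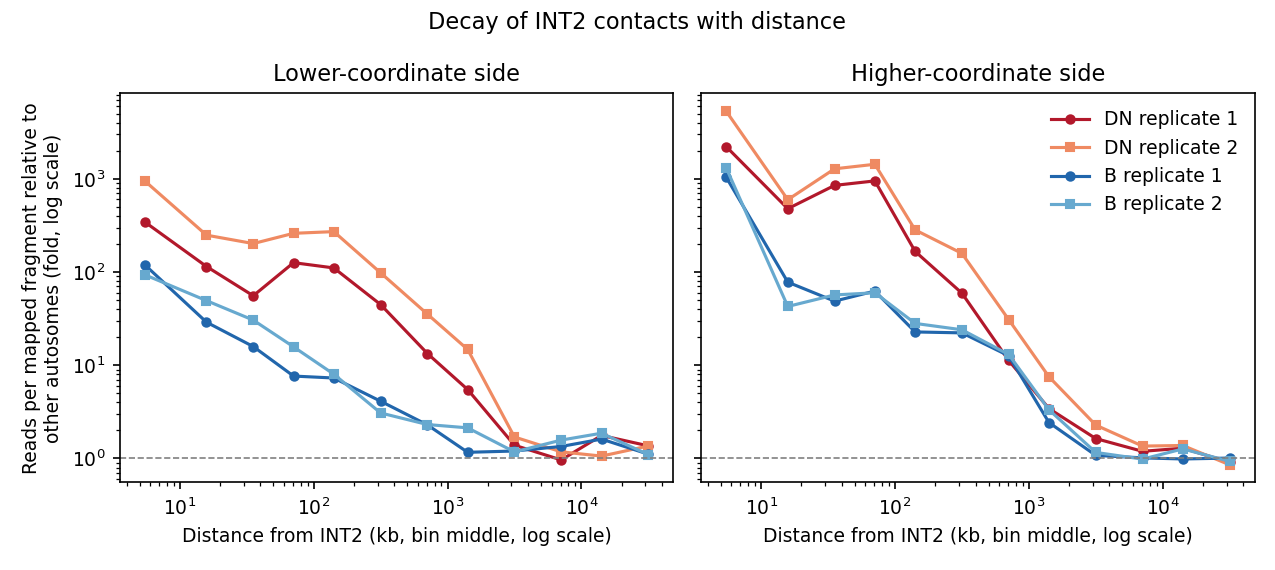
Reads per mapped fragment relative to the density on other autosomes (y axis, fold, log scale) against distance from INT2 (x axis, kb, log scale) for the lower side (left) and higher side (right), 1 line per library, with a dashed line at 1. The B lines fall to 2.29-fold and 2.31-fold by 500 kb to 1 Mb on the lower side, and to 12.6-fold and 13.1-fold on the higher side.

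Of the 26 distance bins, 9 (34.6%) were higher and 9 (34.6%) lower in DN by limma at an adjusted p under 0.05. On the lower side DN was higher from 50 to 100 kb (log2 difference 2.49, SE 0.46), 100 to 200 kb (2.95, SE 0.39), 200 to 500 kb (2.66, SE 0.36) and 500 kb to 1 Mb (1.69, SE 0.38), with adjusted p of 6.59e-06, 4.74e-09, 5.11e-09 and 0.000113. On the higher side DN was higher from 10 to 25 kb (1.66, SE 0.40), 25 to 50 kb (2.76, SE 0.33), 50 to 100 kb (2.70, SE 0.34) and 100 to 200 kb (1.55, SE 0.32). Bins from 5 to 50 Mb were lower in DN on both sides, between -1.20 and -2.00. So were the lower-side bin from 2 to 5 Mb (-1.185, SE 0.43) and the higher-side bin beyond 50 Mb (-1.32, SE 0.34). With all chromosomes as library size, only the lower-side bin from 5 to 10 Mb was still called lower (-0.88). Over the density of other autosomes these bins had no common direction. DN was higher in the lower-side bin from 20 to 50 Mb (1.37-fold and 1.36-fold against 1.11-fold and 1.10-fold) and in the higher-side bins from 5 to 20 Mb. It was also higher in the lower-side bin from 2 to 5 Mb (1.39-fold and 1.70-fold against 1.20-fold and 1.18-fold). It was lower in the lower-side bin from 5 to 10 Mb (0.964-fold and 1.18-fold against 1.34-fold and 1.57-fold). The higher-side bin from 20 to 50 Mb was also lower (0.911-fold and 0.856-fold against 1.01-fold and 0.932-fold). The lower-side bin from 10 to 20 Mb and the higher-side bin beyond 50 Mb overlapped. As shares of one total, the bins are not independent of each other. limma pooled the spread over all bins, so these small p-values rest on bins counted as separate, with only 2 libraries against 2.

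Of these, the lower-side bins from 50 to 500 kb and the higher-side bins from 25 to 100 kb were higher in DN under every library size tried. The lower-side bin from 500 kb to 1 Mb and the higher-side bins from 10 to 25 kb and from 100 to 200 kb lost their call with reads within 1 Mb as library size, at 0.28, 0.25 and 0.14. The lower-side bin from 1 to 2 Mb, at 0.96 (SE 0.39, limma, adjusted p = 0.0232), depended on copied fragments and fell to 0.04 without them, and its sign turned (-0.44) when reads within 1 Mb were the library size. The higher-side bin from 500 kb to 1 Mb was lower in DN (-1.02, SE 0.33, limma, adjusted p = 0.00535), but its sign turned when all chromosomes were the library size (0.11). Bins within 50 kb on the lower side and within 10 kb on the higher side did not pass, nor did those from 200 to 500 kb (0.51) or 1 to 5 Mb on the higher side or beyond 50 Mb on the lower side.

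**Figure D4:**
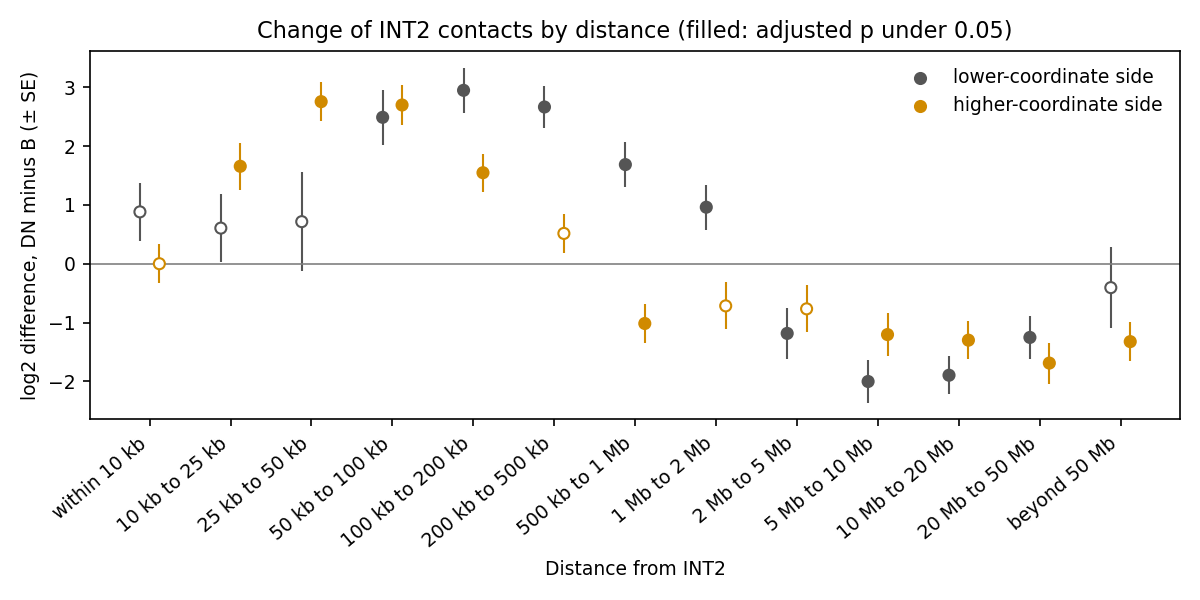
The log2 difference of DN minus B with its standard error (y axis) in each distance bin (x axis), for the lower and the higher side, filled where the limma adjusted p was under 0.05. Between 100 kb and 1 Mb the lower side lies above the higher side, at 1.69 against -1.02 from 500 kb to 1 Mb.

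The balance between the sides, a ratio within each library that no library size changes, differed between the cell types from 100 kb to 1 Mb. Between 500 kb and 1 Mb the higher side held 39.2% and 40.04% of the reads of both sides in DN, against 80.8% and 81.2% in B. Between 200 and 500 kb it held 49.9% and 54.9% against 80.3% and 85.4%, and between 100 and 200 kb 63.6% and 54.8% against 78.4% and 80.3%. In all 3 classes the groups stood apart. From 50 to 100 kb, where the higher side held 89.3% and 85.9% in DN and 90.1% and 80.9% in B, and from 10 to 25 kb they overlapped. From 25 to 50 kb they stood apart the other way, with 94.6% and 87.9% in DN and 77.8% and 68.0% in B (log2 difference of the lower to the higher side -2.04, limma, adjusted p = 0.0594). Within 10 kb the higher side held 81.1% and 78.9% in DN and 85.3% and 90.4% in B (limma, adjusted p = 0.152).

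A limma fit to the log2 ratio of the lower to the higher side, added after seeing the data, called 6 of 12 distance classes (50%). The ratio was higher in DN by 1.40 (SE 0.26, adjusted p = 0.0165) from 100 to 200 kb, by 2.15 (SE 0.27, adjusted p = 0.00676) from 200 to 500 kb and by 2.70 (SE 0.14, adjusted p = 0.000623) from 500 kb to 1 Mb. The last 2 of these passed under every alternative run, at 1.84 to 2.56 and 2.60 to 3.42. Over the whole 1 Mb the log2 ratio was -1.64 and -1.20 in DN and -2.18 and -2.12 in B, a difference of 0.74 (exact permutation p = 0.333, the smallest possible).

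**Figure D5:**
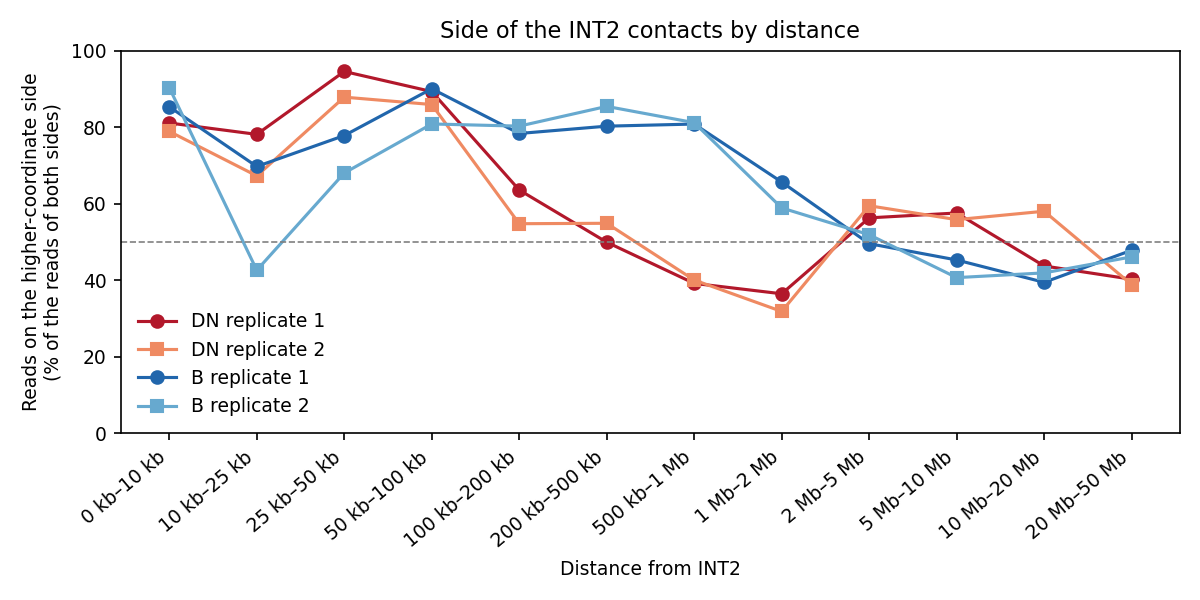
Percent of the reads of both sides that lay on the higher-coordinate side (y axis) in each distance class (x axis), 1 line per library, with a dashed line at 50%. From 100 kb to 2 Mb both DN libraries lie below both B libraries, at 39.2% and 40.04% against 80.8% and 81.2% from 500 kb to 1 Mb.

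Single-fragment peaks were mostly not repeated between replicates. A peak was a fragment at least 8-fold over the median of 10 fragments on each side, with at least 0.01% of chromosome 14 reads. Single libraries held 82 and 60 peaks in DN and 93 and 87 in B, of which 22 were met in both DN and 26 in both B libraries. Between the cell types 2 peaks were shared, 9.09% of the DN and 7.69% of the B peaks: the TEA fragment, and the V-array fragment chr14:54292319-54296650, which has copies at 2 other positions. The fragments closest to the rule stood at 8.35-fold inside and 7.86-fold outside it in DN, and at 8.04-fold and 7.80-fold in B, in the lower of each pair of libraries.

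The TEA fragment stood 12.9-fold and 9.08-fold over its surroundings in DN and 10.6-fold and 14.7-fold in B. Its enrichment over neighbours thus overlapped between the cell types, while its level did not. In B, the fragments chr14:54688077-54690201 and chr14:54690208-54693461, 6.71 and 9.40 kb from INT2, stood 42.8-fold and 45.6-fold, and 19.7-fold and 15.9-fold, over their surroundings. In DN the former stood 7.86-fold and 15.5-fold over its own.

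On the lower side, 7 of 12 DN peaks and 5 of 18 B peaks had a copy elsewhere, or 8 and 7 under a wider definition of a copy. Many peaks stood in empty surroundings: the median of the neighbours was 0 in both libraries for 6 of 10 higher-side DN peaks and 10 of 18 lower-side B peaks, where an enrichment has no meaning as a fold. Among B peaks without a copy, chr14:54422987-54425909, 258 kb into the V array, had 946 and 314 reads in B and 316 and 744 in DN. On the far higher side, chr14:55618512-55628453, 941 kb away, was the leading DN peak with 101 and 779 reads, against 7 and 996 in B. Both are examples of fragments that are a peak by their surroundings in one cell type without a separate level.

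Far chromosome 14, from 1 Mb outward, lay on average close to the density of other autosomes in both cell types. Beyond 1 Mb, fragments stood 1.29-fold and 1.49-fold over the density of other autosomes in DN and 1.13-fold and 1.18-fold in B. The bins from 1 to 2 Mb stood further above that density in DN. On the lower side the values were 5.49-fold and 14.8-fold in DN and 1.16-fold and 2.13-fold in B. Copied fragments, which cannot be assigned to one position, held 68.7% and 74.7% (DN) and 48.5% and 43.3% (B) of those reads. On the higher side the values were 3.43-fold and 7.51-fold in DN and 2.43-fold and 3.33-fold in B. As a share of chromosome 14 reads that bin was lower in DN, without passing (log2 difference -0.72, limma, adjusted p = 0.0973). Of the 25710 fragments beyond 1 Mb, 8.59% and 8.76% were captured in DN and 14.97% and 18.5% in B. With reads thinned to those of the smallest library the values were 8.59% and 6.86% against 12.3% and 14.5%. In windows of 500 kb, limma called 0 of 204 (0.0%), with 20 at an unadjusted p under 0.05 and a smallest adjusted p of 0.357. Counting only fragments with at least 2 reads called 2, and summed reads 1.

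INT2 and INT1 lie 5.09 kb apart, and their libraries come from the same samples. Between INT2 and TEA, from 20 kb on, INT2 held 24.6% and 24.9% of chromosome 14 reads in DN where INT1 held 5.24% and 9.12%. In B the values were 3.76% and 3.76% against 1.87% and 2.32%. The log2 ratio of INT2 to INT1 was 2.23 and 1.45 in DN and 1.01 and 0.70 in B, a difference of 0.98 (exact permutation p = 0.333, the smallest possible). On the lower side from 20 kb to 1 Mb the log2 ratio was -0.58 and -0.45 in DN and 0.02 and -0.30 in B, and beyond TEA it was 0.22 and -0.30 against -0.01 and -0.04. In 10 kb windows, the difference of INT2 and INT1 between the cell types passed in 1 of 189 (0.529%), which was lost when any 1 sample was left out.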

How the data were processed

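4C-seq was read from the INT2 viewpoint in 2 DN and 2 B samples. The deposited values are RPM per HindIII fragment, scaled by the authors to mapped reads. The submitters' processing notes name CASAVA, Bowtie and mm9, and versions and settings are not given in the sources used here. All values were whole multiples of 1 read within 0.01 read below 1000 reads, so reads were recovered. Absent fragments were taken as 0, and 8 averaged files were not used.

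Values were rescaled to chromosome 14 reads outside the viewpoint and 1 fragment on each side. limma 3.58.1 (R 4.3.3) was fitted with a mean-variance trend to log2 of RPM of these chromosome 14 reads plus a pseudocount of 1, on fragments with a mean of at least 10 RPM, 2 against 2, two-sided, with Benjamini-Hochberg adjustment over all features of a table. Fold changes on this scale understate low values. Single values were compared by exact permutation. Alternatives were edgeR 4.0.16, DESeq2 1.42.0, other library sizes, pseudocounts and filters, capped values, a replicate block and each sample left out.

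The libraries and lists were chosen with earlier results of these data known. The named features are the fragments of the other viewpoints, every distance bin, called fragments and windows, and the leading peaks per cell type and side, given as examples. Fragments were taken as copies when their values were identical in all 16 libraries (reads in at least 4) or in the INT2 libraries (reads in at least 3, 20 reads in all). A wider rule (reads in at least 2, lengths within 10%) was written after the calls under the first had been seen, and both are reported. Replicate numbers did not pair the samples: deviations from the group means correlated at -0.033. No mm9 genome or annotation was used here, so no sequences are printed.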

Additional observations from a re-analysis of the deposited data

Results flagged for a closer look

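The log2 ratio of the lower to the higher side differed between DN and B in 6 distance classes by limma, a test added after seeing the data. It was higher in DN by 1.40 from 100 to 200 kb, by 2.15 from 200 to 500 kb, by 2.70 from 500 kb to 1 Mb and by 1.68 from 1 to 2 Mb, and by 0.44 from 20 to 50 Mb. It was lower in DN from 5 to 10 Mb, at -0.80. From 1 to 2 Mb the difference was 0.72 (limma, adjusted p = 0.189) without copied fragments, and from 20 to 50 Mb it was 0.32 (limma, adjusted p = 0.0583). In both of these classes the call was lost.

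The difference of INT2 and INT1 between DN and B was -15.57 on the log2 scale in the 10 kb window chr14:54120001-54130000. The value rests on libraries with no read and on the pseudocount, so it is not a fold, and the call was lost when any 1 sample was left out.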

How the results depend on the processing

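The side ratios of 200 to 500 kb and 500 kb to 1 Mb kept their direction and their call in every alternative run. With 1 sample left out, an arm of 1 library is assumed to vary like the other cell type, so those calls add little support. The shares, the overall side ratio and both decay slopes kept their direction, in a design whose exact test cannot pass. Changes of count and sign are given here, and their causes were not tested except where fewer fragments or samples entered.

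Fragments within 1 Mb (0 called): 26 were higher in DN with all chromosomes as library size, 32 higher and 12 lower without the mean-variance trend, 74 and 12 with values capped at the 95th percentile, 43 and 29 with DESeq2, 30 and 6 with copied fragments left out, and 35 and 7 under the wider copy rule. The number called thus moved with the definition of a copy, and these calls lay just under the threshold (smallest adjusted p 0.0456 and 0.0471). With 1 sample left out, 0 to 92 were higher, 92 without DN replicate 1, 67 without DN replicate 2 and 0 without either B sample.

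Distance bins (9 higher, 9 lower): 1 was lower with all chromosomes as library size, 5 were higher and 14 lower with reads within 1 Mb, 5 higher with reads in excess of other autosomes, and 14 higher with capped values. With 1 sample left out, 2 to 11 were lower, 3 without B replicate 1 and 2 without B replicate 2. The share of higher calls was 50% in the main scaling, 88.9% with all chromosomes and 26.3% with reads within 1 Mb.

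With reads within 1 Mb or excess reads as library size, bins turned on the lower side within 10 kb (-0.52, -0.28), from 10 to 25 kb (-0.80, -0.55), 25 to 50 kb (-0.69, -0.44) and 1 to 2 Mb (-0.44, -0.20), and on the higher side from 200 to 500 kb (-0.89, -0.64). With all chromosomes, those on the lower side beyond 50 Mb (0.72) and on the higher side within 10 kb (1.13), from 500 kb to 1 Mb (0.11), 1 to 2 Mb (0.41) and 2 to 5 Mb (0.36) turned. The bin within 10 kb on the higher side, near 0, was 0.056 with TMM, 0.021 with edgeR, 1.68 with capped values, 0.026 and 0.023 without copies, and -0.28 to 0.28 with 1 sample left out (above 0 without DN replicate 1 or B replicate 2). The bin beyond 50 Mb on the lower side ran from -0.81 to 0.00052 with 1 sample left out, the latter without DN replicate 2. The INT1 fragment turned with reads within 1 Mb (-0.66), excess reads (-0.42), TMM (-0.41) and DESeq2 (-0.55).

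Side ratio by distance class (5 higher, 1 lower): 3 were lower with capped values, 3 higher and 0 lower with the density of other autosomes subtracted (9 classes up to 5 Mb tested in place of 12), 3 higher and 4 lower without copies, and 3 and 3 under the wider rule. With 1 sample left out, 3 to 4 were higher and 0 to 3 lower. Capped values turned the classes within 10 kb (-0.15) and from 50 to 100 kb (0.28), and the latter ran from -0.76 to 0.34 with 1 sample left out (0.018 without DN replicate 1, 0.34 without B replicate 2).

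Far windows (0 called): 1 with summed reads and 2 with at least 2 reads. INT2 minus INT1 windows (1 lower): 2 with a pseudocount of 50, 0 with no filter, 0 without the trend and 0 with any 1 sample left out. Peaks in both DN and both B libraries numbered 42 and 55 at 4-fold and 14 and 16 at 16-fold.

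The replicate numbers do not pair the samples. A replicate block gave 1 fragment higher in DN, 10 bins higher and 9 lower, and 5 side ratios higher and 3 lower.

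DN replicate 1 was the shallowest library, with 217714 chromosome 14 reads, and 3 reads there are 13.8 RPM of chromosome 14 reads.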
